A study of Homo sapiens with 6 samples.

Results

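The heat shock proteins and their co-chaperones were examined as a panel of 10 genes taken by symbol from the expression table, and 9 of the 10 had values among the 15059 genes measured. The panel holds 6 inducible cytosolic chaperones (HSPA1A, HSPA1B, DNAJB1, HSPH1, HSP90AA1 and HSPB1), 2 constitutive cytosolic ones (HSPA8 and HSP90AB1) and 2 of the mitochondrial matrix (HSPD1 and HSPE1). HSPA1B was not analysed here, so the inducible class stands on 5 genes. The libraries came from NOMO-1, an established human line of acute myeloid leukaemia, and were made from ribosome-depleted total RNA in 3 groups of 2. Every group carried a lentiviral guide RNA and an overexpression vector and was kept in puromycin (2 µg/ml, 1 to 2 weeks). The control group (sgNS+EV) had the non-targeting guide with the empty vector. The knockout group (sgMETTL16+EV) had a guide against METTL16, an RNA N6-adenosine methyltransferase, with the same empty vector. In the rescue group (sgMETTL16+OE-METTL16), that guide was introduced into cells overexpressing METTL16. Whether any group was a clone or a pool, and whether libraries of a group came from separate cultures, is not given in the sources used here, so the p-values speak for the spread among the libraries at hand, which may be technical.

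Cytosolic HSP70 binds unfolded stretches of protein in a cycle driven by ATP, in which J-domain proteins deliver clients and nucleotide exchange factors release them, while HSP90 acts later on proteins that are nearly folded. Genes of the inducible class are transcribed through heat shock factor HSF1 when unfolded proteins build up, and their cognate forms HSPA8 and HSP90AB1 are made at high level in unstressed cells. HSPD1 and HSPE1 form the barrel and the lid of the mitochondrial chaperonin and are transcribed in opposite directions from a shared stretch of DNA.

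The sequences upstream of the members were read from RefSeq (build GRCh38.p14), where all 10 genes were matched, with 16 start sites between them. The trimer bound by heat shock factors recognises alternating GAA and TTC blocks, and these letters were searched on both strands in the 250 bases before each start. The 3-block motif was GAANNTTCNNGAA, searched in both orientations, and the 2-block motif, contained in it, was GAANNTTC or TTCNNGAA. The 3-block motif was present before at least 1 start of 4 of the 10 genes (HSP90AA1, HSPA8, HSP90AB1 and HSPD1) and of 0.557% of all 27305 genes, and the 2-block motif in 8 of the 10 and in 14.0% of all genes. HSPH1 and HSPE1 held neither in this window. The HSPE1 window began at 197500129 on chromosome 2. The HSPD1 window with matches ended at 197500090, so its matches lay upstream of the HSPE1 window and were not counted for HSPE1. HSPA1A and HSPA1B held 1 match to the shorter motif each, at positions -106 and -105, where -1 is the base before the start. One inducible HSP70, the J-domain partner, both cytosolic HSP90 genes, the cognate HSP70 and the chaperonin barrel are shown, each at the start with the most matches, since the comparison of classes turns on them. For DNAJB1, HSP90AA1, HSP90AB1 and HSPD1, the windows before their other starts held no match. Each of these genes also has a start further upstream than the one shown. Capitals mark every match to either motif, and each sequence runs 5′ to 3′ on the strand of its gene.
HSPA1A (chr6:31815293-31815542, plus strand): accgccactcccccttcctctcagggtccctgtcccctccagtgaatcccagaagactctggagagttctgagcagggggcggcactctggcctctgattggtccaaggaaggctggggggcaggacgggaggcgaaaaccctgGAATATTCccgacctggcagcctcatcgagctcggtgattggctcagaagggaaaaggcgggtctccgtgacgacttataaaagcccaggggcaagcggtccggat
DNAJB1 (chr19:14518398-14518647, minus strand): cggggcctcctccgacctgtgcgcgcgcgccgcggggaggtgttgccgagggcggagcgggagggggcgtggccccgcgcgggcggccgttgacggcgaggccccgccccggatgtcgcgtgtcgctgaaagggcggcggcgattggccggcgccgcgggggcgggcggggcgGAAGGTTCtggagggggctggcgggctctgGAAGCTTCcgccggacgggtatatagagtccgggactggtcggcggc
HSP90AA1 (chr14:102087045-102087294, minus strand): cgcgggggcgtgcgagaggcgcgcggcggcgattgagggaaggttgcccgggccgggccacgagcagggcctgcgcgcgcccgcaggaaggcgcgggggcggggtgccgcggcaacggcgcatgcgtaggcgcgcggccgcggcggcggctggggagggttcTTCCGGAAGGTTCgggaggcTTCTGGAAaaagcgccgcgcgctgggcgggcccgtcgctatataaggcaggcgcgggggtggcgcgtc
HSPA8 (chr11:123062137-123062386, minus strand): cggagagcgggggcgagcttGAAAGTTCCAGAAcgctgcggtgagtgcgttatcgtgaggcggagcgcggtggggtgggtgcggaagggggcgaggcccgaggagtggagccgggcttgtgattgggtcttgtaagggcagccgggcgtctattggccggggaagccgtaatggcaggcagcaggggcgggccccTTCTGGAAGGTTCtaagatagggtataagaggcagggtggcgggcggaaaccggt
HSP90AB1 (chr6:44247693-44247942, plus strand): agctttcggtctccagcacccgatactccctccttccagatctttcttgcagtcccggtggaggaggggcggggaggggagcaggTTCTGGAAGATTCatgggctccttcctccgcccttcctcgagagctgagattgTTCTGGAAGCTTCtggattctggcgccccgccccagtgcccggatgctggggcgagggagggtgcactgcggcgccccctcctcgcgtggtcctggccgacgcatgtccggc
HSPD1 (chr2:197499841-197500090, minus strand): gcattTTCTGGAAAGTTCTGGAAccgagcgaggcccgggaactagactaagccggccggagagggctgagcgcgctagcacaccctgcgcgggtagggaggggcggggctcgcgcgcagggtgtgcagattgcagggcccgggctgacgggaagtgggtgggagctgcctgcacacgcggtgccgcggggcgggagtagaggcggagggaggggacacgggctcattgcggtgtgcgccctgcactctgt

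HSPA1A had 1 run of TATAAA on its own strand, which 6.80% of the 35116 windows of this length hold, and 2 CCAAT boxes, counted on either strand, which 32.0% hold. HSPA8 had 2 CCAAT boxes and no TATAAA. The nearest starts of HSPD1 and HSPE1 lay 105 bases apart on chromosome 2. The HSPD1 start used there is not the one shown above with its matches. A match in these windows describes the letters only, and both classes of cytosolic chaperone held such matches.

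Values are RSEM abundances, called the signal here, which are scaled for transcript length, though no source used here says whether they are TPM or FPKM. The signal summed to between 597160 and 681928 per library, and read totals are not given in the sources used here. From the spacing of the values of short RNAs, a signal of 1 stood for an estimated 23.6 to 26.2 reads per 1000 nt. The step was chosen in each library to put the most values within 0.15 of a whole number of reads. The share so placed, 70.8% to 84.0%, is thus the quantity fitted and does not test the estimate. By that estimate HSPA1A rested on 1297 to 2737 reads per library and HSP90AB1 on 41940 to 49952. Control replicate 2 lay below the other libraries, with a median log2 deviation of -0.10 over the genes tested where the others lay between 0.0024 and 0.040. The targeted gene METTL16 had a signal of 9.89 and 9.63 in control, 6.05 and 5.83 in knockout and 12.3 and 12.1 in rescue, in the order the labels give. Knockout thus kept 0.609 times the control signal, and rescue against control did not pass (log2 0.30, limma adjusted p = 0.175). Of 18 myeloid markers 13 had values, and their summed signal was 749 and 696 in control, 2025 and 1971 in knockout, and 964 and 958 in rescue. Most of that rise came from CTSG, the granule protease cathepsin G, and without it the sum was 426 and 392 in control, 661 and 631 in knockout, and 473 and 476 in rescue. Of the 13, 10 rose in knockout and none fell (limma, adjusted p under 0.05), where 26.2% of all genes tested rose and 13.5% fell. The 4 lymphoid markers with values, of 10 listed, also summed higher in knockout, at 3.12 and 2.42 in control, 5.99 and 6.17 in knockout, and 3.05 and 2.86 in rescue. CD2, a T and NK cell adhesion protein, carried most of this, at 0.740 and 0.636 in control, 3.02 and 2.86 in knockout, and 0.794 and 0.640 in rescue. Erythroid and epithelial or fibroblast markers summed to 2.76 or less in every library, with no such order of the groups. In bulk RNA a change in the number of cells of a type and a change in RNA per cell cannot be told apart, and the part that the movement of the myeloid and lymphoid markers had in the results on chaperones was not tested.

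Knockout was set against control to ask which chaperone transcripts differed when the METTL16 guide was present. All 5 measured inducible cytosolic chaperones were higher in knockout, from 1.24 times the control level for HSP90AA1 to 2.18 times for HSPA1A. Of the constitutive pair HSPA8 rose to 1.24 times control, whereas HSP90AB1 and both mitochondrial chaperonin genes did not pass the test. Together 6 of 9 members rose and none fell at an adjusted p under 0.05 (limma over 12734 genes, Benjamini-Hochberg), where 26.2% of all genes tested rose and 13.5% fell, 39.7% in either direction. At an unadjusted p under 0.05 the count of members was also 6, and the share of all genes tested was 48.4%. The median log2 difference was 0.54 for the inducible class, against 0.067 for all genes tested. The split over all genes depends on scaling, since 3333 rose and 1723 fell as deposited, and 3113 and 3164 after libraries were set to equal medians. The 5 inducible genes rose under every scaling and without any single library, and HSPA8 did too.

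HSPA1A (ENSG00000204389, chromosome 6, 31815464 to 31817946, plus strand, GRCh38) encodes the stress-induced cytosolic HSP70. The signal of HSPA1A was 21.1 and 20.5 in control, 47.3 and 43.5 in knockout, and 21.9 and 22.9 in rescue. Both knockout libraries stood far above the other 4, and rescue lay just above control with no overlap. The log2 difference between knockout and control was 1.09 (SE 0.068, limma adjusted p = 8.62e-08), which ranked 55 from the top among 12734 genes. Of the 50-base stretches of its longest coding transcript, 72.6% also occur in HSPA1B, so how reads were divided between these copies is uncertain and the value may describe both.

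DNAJB1 (ENSG00000132002, chromosome 19, 14514770 to 14529770, minus strand), the J-domain protein that hands clients to HSP70, went the same way. Its signal was 29.98 and 26.4 in control, 50.1 and 49.2 in knockout, and 32.0 and 34.1 in rescue. The knockout libraries were again clear of the rest, and the log2 difference from control was 0.80 (SE 0.071, limma adjusted p = 1.92e-06). HSPH1 (ENSG00000120694, chromosome 13, 31134974 to 31162388, minus strand) encodes HSP110, a nucleotide exchange factor for HSP70. Its signal was 31.5 and 28.8 in control, 43.3 and 45.0 in knockout, and 31.5 and 31.3 in rescue, so rescue overlapped with control. Its log2 difference in knockout was 0.54 (SE 0.065, limma adjusted p = 3.01e-05), and no other gene shared a 50-base stretch with its transcript.

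HSPB1 (ENSG00000106211, chromosome 7, 76302544 to 76304295, plus strand) encodes HSP27, a small heat shock protein that holds unfolding proteins without using ATP. Its signal was 201.5 and 175 in control, 278 and 257 in knockout, and 206 and 202 in rescue. Both control libraries lay below both knockout libraries, with a log2 difference of 0.51 (SE 0.066, limma adjusted p = 4.93e-05). HSP90AA1 (ENSG00000080824, chromosome 14, 102080738 to 102139699, minus strand) is the inducible cytosolic HSP90. Its signal was 258 and 248 in control, 316 and 311 in knockout, and 279.9 and 289 in rescue, which places rescue between the other groups. The knockout difference was 0.31 on the log2 scale (SE 0.051, limma adjusted p = 0.000306).

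HSPA8 (ENSG00000109971, chromosome 11, 123057489 to 123063230, minus strand) encodes HSC70, the cognate HSP70 that also uncoats clathrin vesicles. Its signal was 469 and 435 in control, 559 and 567 in knockout, and 514 and 507 in rescue. Like HSP90AA1, it was highest in knockout with rescue in between, and its log2 difference in knockout was 0.32 (SE 0.053, limma adjusted p = 0.000352). HSP90AB1 (ENSG00000096384, chromosome 6, 44246166 to 44253888, plus strand), the constitutive HSP90, had the highest signal of the panel in every library. Its signal was 731 and 697 in control, 675 and 676 in knockout, and 769 and 769 in rescue. Here knockout was the lowest group, though the log2 difference from control of -0.079 did not pass (95% interval -0.19 to 0.028, limma adjusted p = 0.227). Its direction depended on scaling, at -0.16 with equal medians (adjusted p = 0.0243) and 0.13 after quantile normalization (adjusted p = 0.00412).

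HSPD1 (ENSG00000144381, chromosome 2, 197486581 to 197516737, minus strand) encodes HSP60, the barrel of the mitochondrial chaperonin. Its signal was 426 and 405 in control, 394 and 389.6 in knockout, and 448 and 452 in rescue. As for HSP90AB1, knockout lay below both other groups, and its log2 difference from control was -0.084 (95% interval -0.19 to 0.024, limma adjusted p = 0.204). That difference passed after quantile normalization (log2 -0.072, adjusted p = 0.0195), with equal medians (-0.16, 0.0147) and with equal sums once the 4 most abundant RNAs were set aside (-0.078, 0.0400). Leaving out control replicate 2 also made it pass (-0.12, 0.0475). HSPE1 (ENSG00000115541, chromosome 2, 197499994 to 197503457, plus strand) encodes HSP10, the lid. Its signal was 182 and 174 in control, 179 and 182 in knockout, and 197 and 205 in rescue. Control and knockout overlapped, with a log2 difference of 0.018 (95% interval -0.094 to 0.13, limma adjusted p = 0.812), whose sign turned with equal medians (-0.058) and without control replicate 2 (-0.017). Other genes' transcripts hold 24.8% of the 50-base stretches of HSPD1 and 27.2% of those of HSPE1, from 10 genes each, where for DNAJB1, HSPB1, HSPA8, HSP90AA1 and HSP90AB1 the share was 2.57% to 18.8%.

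**Figure D1:**
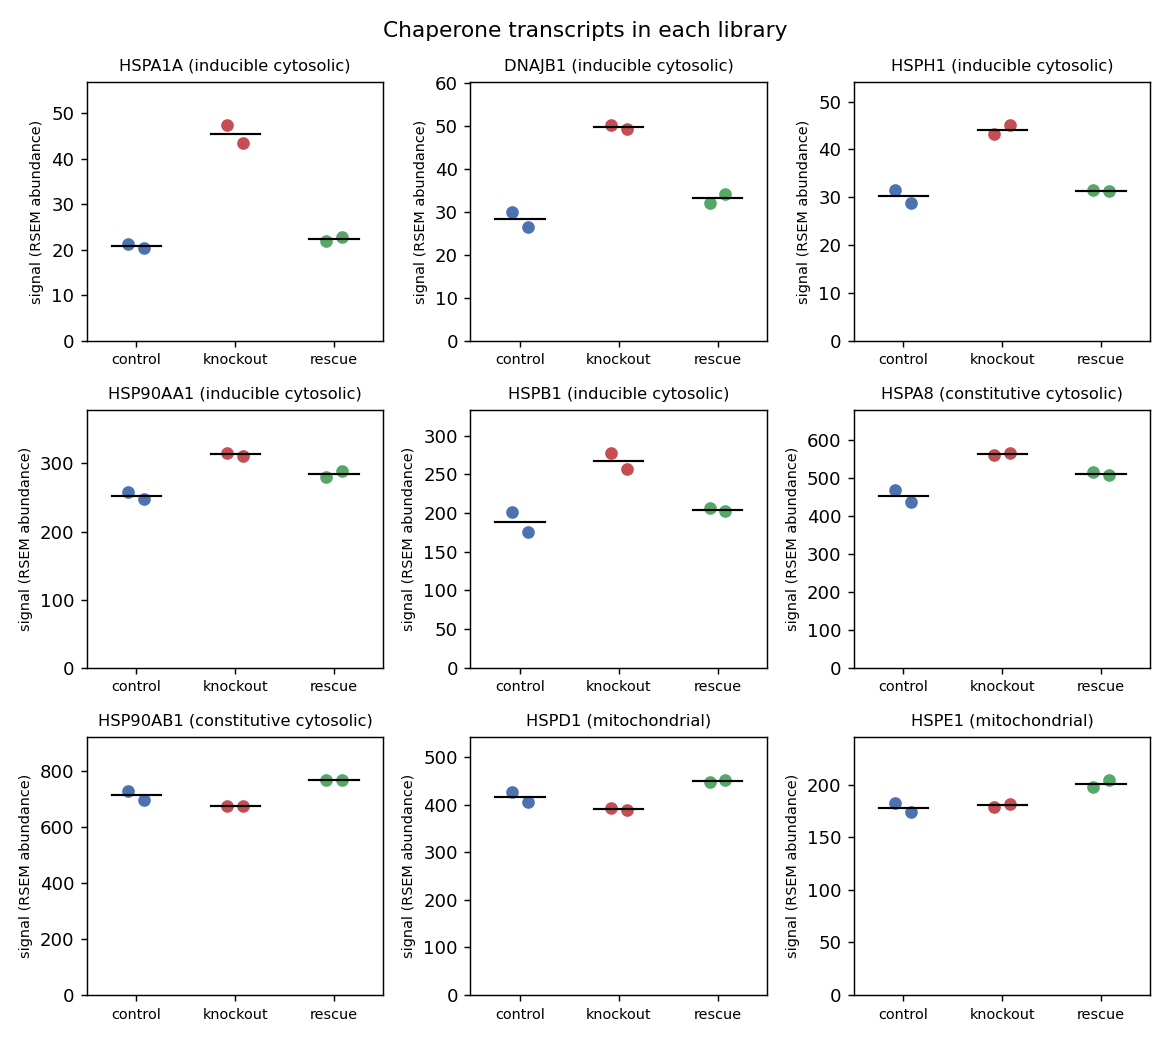
Signal (RSEM abundance, linear axis from 0) of the 9 measured chaperone genes, with 1 point per library and a bar at the mean of each group of 2. For the 5 inducible genes and HSPA8 both knockout points lie above all points of the other groups, and for HSP90AB1 and HSPD1 they lie below them. How many of all genes separate in this way was not counted.

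Ratios formed within a library are not changed by any factor applied to the whole library, and they set inducible against constitutive forms. The ratio of HSPA1A to HSPA8 was 0.0451 and 0.0470 in control, 0.0847 and 0.0767 in knockout, and 0.0426 and 0.0451 in rescue. Thus knockout libraries held more of the inducible HSP70 per cognate HSP70, by 0.81 on the log2 scale, and rescue overlapped with control. The ratio of HSP90AA1 to HSP90AB1 was 0.353 and 0.356 in control, 0.468 and 0.461 in knockout, and 0.364 and 0.376 in rescue. This ratio rose by 0.39 on the log2 scale in knockout, with a pooled SD between replicates of 0.014, and rescue stood slightly above control. HSP90AB1 remained the more abundant of the pair, so their levels came closer in knockout.

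Among co-chaperones, DNAJB1 per HSPA8 was 0.0639 and 0.0607 in control, 0.0895 and 0.0868 in knockout, and 0.0623 and 0.0673 in rescue. HSPH1 per HSPA8 was 0.0672 and 0.0663 in control, 0.0774 and 0.0795 in knockout, and 0.0614 and 0.0616 in rescue. Both ratios were highest in the knockout libraries, by 0.50 and 0.23 over control on the log2 scale, and for HSPH1 rescue lay below control. Within the mitochondrial chaperonin HSPE1 per HSPD1 was 0.428 and 0.429 in control, 0.453 and 0.466 in knockout, and 0.440 and 0.452 in rescue. The lid thus gained 0.10 on the log2 scale over the barrel in knockout, and all 5 ratios were higher in both knockout libraries than in both control libraries. Those with HSPA8 as denominator are not independent of one another, and the share of other gene pairs that separate in this way was not counted. The ratios were not tested, since an exact two-sided permutation test of 2 libraries against 2 cannot go below p = 0.333, and their pooled SD between replicates ran from 0.014 to 0.077 on the log2 scale. Quantile normalization, which changes each gene by its rank, left smaller gains for HSP90AA1 over HSP90AB1 (0.13), for HSPH1 over HSPA8 (0.058) and for DNAJB1 over HSPA8 (0.315).

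**Figure D2:**
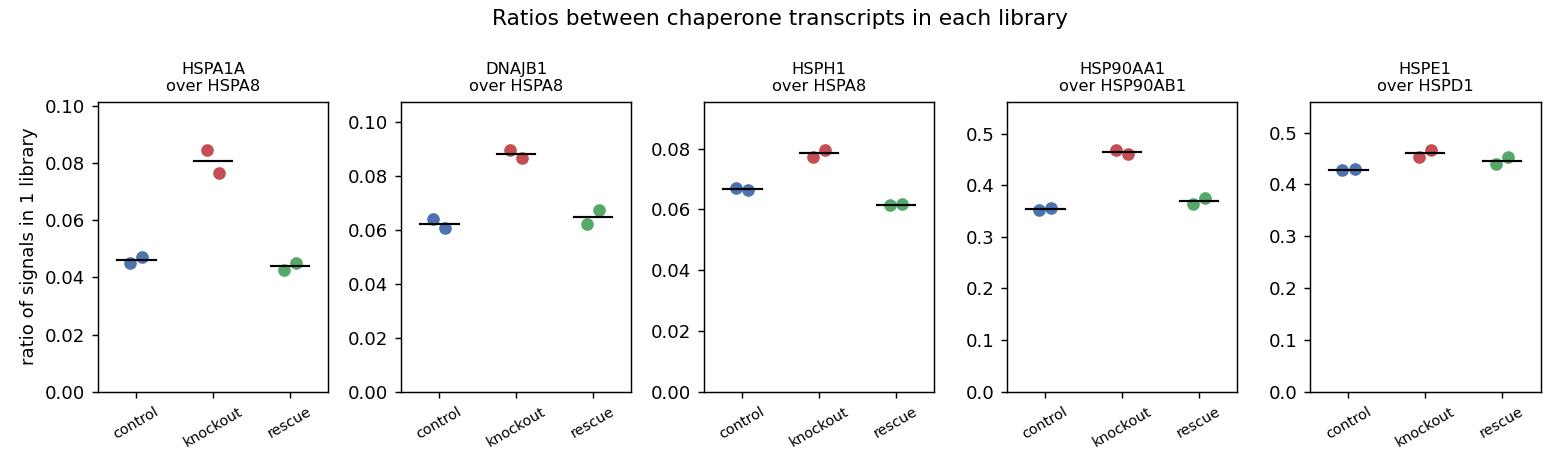
Ratio of the signals of 2 chaperone genes within each library (linear axis from 0, 1 point per library, bar at the group mean), by group. The ratio of HSPA1A to HSPA8 lies at 0.0767 and 0.0847 in knockout and at 0.0470 or less in the other libraries, and that of HSP90AA1 to HSP90AB1 at 0.461 and 0.468 against 0.376 or less.

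The comparison of rescue with knockout asked how the panel differed when cells overexpressed METTL16 before receiving the same guide. It shares the knockout libraries with the comparison above, so opposite signs are in part built in. All 5 inducible members fell, while HSP90AB1, HSPD1 and HSPE1 rose, and HSPA8 at -0.14 did not pass (limma adjusted p = 0.0565). Over all genes tested 15.6% rose and 15.9% fell, 31.4% in either direction. The counts there were 1982 risen and 2022 fallen, or 1933 and 3946 when libraries were set to equal sums without the 4 most abundant RNAs. HSPA1A had a log2 difference of -0.99 (limma adjusted p = 3.58e-07), DNAJB1 one of -0.57 (6.25e-05), HSPH1 one of -0.48 (0.000134) and HSPB1 one of -0.39 (0.000649). These 4 genes passed in every alternative that was run.

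The other calls of this comparison were small. HSP90AA1 was at -0.14 (limma adjusted p = 0.0474), and lost its call without either knockout library (0.233 and 0.141), without either rescue library (0.355 and 0.174), without a filter (0.0528) and without a variance trend (0.167). HSP90AB1 rose by 0.19 (limma adjusted p = 0.0112), HSPD1 by 0.20 (0.00786) and HSPE1 by 0.16 (0.0346). All 3 lost their calls without rescue replicate 1 (adjusted p from 0.0614 to 0.126) and without rescue replicate 2 (0.0884 to 0.319), as well as without a variance trend (0.0625 to 0.134). HSPE1 also lost it without either knockout library (0.190 and 0.107) and with equal sums (0.0564). After quantile normalization HSP90AB1 stood at -0.057 and HSPD1 at 0.052, neither past the threshold. HSPA8 passed in 8 of 15 alternatives, with adjusted p from 0.000617 to 0.0397 in those and a log2 difference below 0.

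Between rescue and control none of the 9 members passed (limma), and 36 of 12734 genes did, 0.283%, with 0.228% risen and 0.055% fallen. At an unadjusted p under 0.05 the counts were 6 members and 11.5% of all genes. All 9 members had a mean above control, by 0.057 (HSPH1) to 0.23 (DNAJB1) on the log2 scale, with a median of 0.12 against 0.061 for all genes tested. For HSPA1A the difference was 0.10 (95% interval -0.045 to 0.25, limma adjusted p = 0.616), so rescue lay at 1.08 times the control signal where knockout lay at 2.18 times. DNAJB1 had the widest gap left, at 1.17 times control (95% interval of the log2 difference 0.074 to 0.38, limma adjusted p = 0.239). With the replicate number as a block it passed, at an adjusted p of 0.0499. HSP90AA1, HSPA8 and HSPE1, each 1.12 to 1.13 times control, had adjusted p of 0.213 to 0.218.

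**Figure D3:**
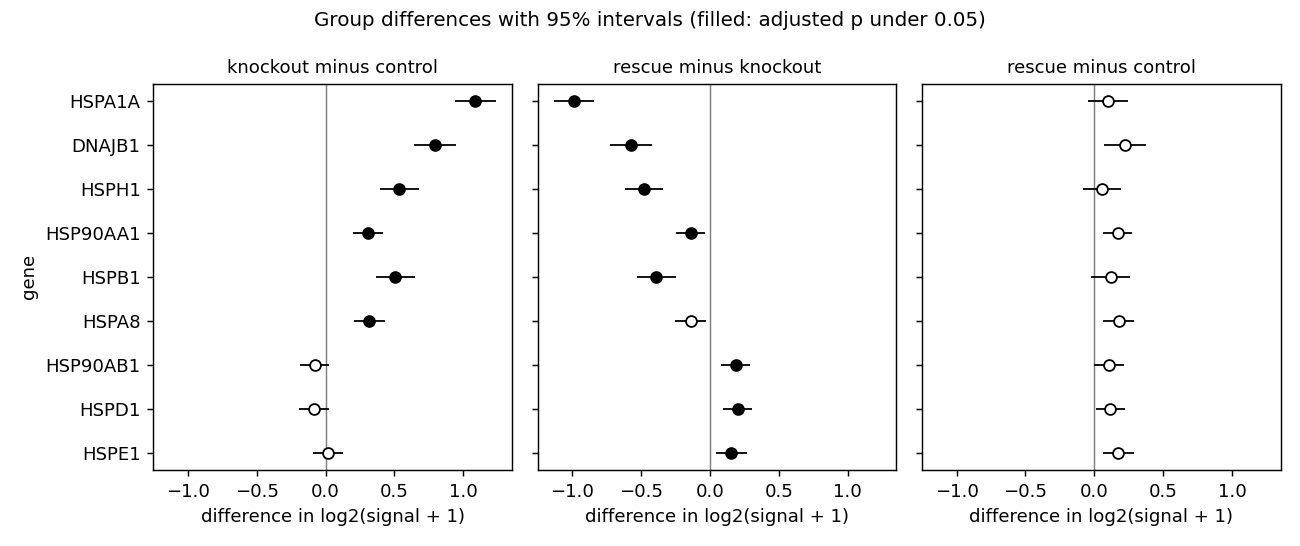
Differences between groups in log2(signal + 1) for the 9 chaperone genes in the 3 comparisons, with 95% intervals from limma, filled where the adjusted p is under 0.05. The points for the inducible genes lie right of 0 in knockout minus control (0.31 to 1.09) and left of 0 in rescue minus knockout (-0.99 to -0.14), and no point is filled in rescue minus control.

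Other genes of the chaperone network were taken from 9 lists with 119 genes in all, of which 102 were tested. In knockout 29 of the 102 rose and 13 fell, with a median log2 difference of 0.081, and these shares lie near the 26.2% and 13.5% of all genes. HSPA6 and RGS2, both among the 29, reached a signal of 1 in the knockout libraries only and so were tested through the group where they are high. RGS2, a regulator of G protein signalling, was looked up after the counts were seen. Without these 2, further genes induced through heat shock factors counted 10 risen and 1 fallen of 19, with a median of 0.22, and after quantile normalization 4 fell. DNAJA1, a J-domain partner of HSP70, rose from 47.8 ± 1.49 (SD, n = 2) to 68.8 ± 4.31 (log2 0.52, limma adjusted p = 2.64e-05). BAG3, which couples HSP70 to autophagy and is also on the list of HSP70 co-factors, rose from 4.33 ± 0.813 to 7.31 ± 0.0417 (log2 0.65, limma adjusted p = 0.000383). JMJD6, a hydroxylase of the nucleus, was at 0.60, and the fallen member was the J-domain protein DNAJB4 at -0.45. HSPA6, an HSP70 expressed almost only under stress, is listed both among these targets and with the HSP70 and HSP110 family. Its signal was 0.663 and 0.651 in control, 1.53 and 1.33 in knockout, and 0.870 and 0.608 in rescue. The knockout libraries were the highest, and since they alone brought HSPA6 past the filter its difference is given as values with no test. The other 5 genes tested in the HSP70 and HSP110 family did not pass.

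J-domain proteins of the A and B types counted 5 risen and 2 fallen of 11, where 26.2% of all genes rose and 13.5% fell. Besides DNAJA1, DNAJB2 and DNAJB5 were at 0.57 and 0.53, and the fallen ones were DNAJB4 and the mitochondrial DNAJA3 at -0.26. The call for DNAJA3 was lost without control replicate 1 (limma adjusted p = 0.0526) and without knockout replicate 2 (0.0926), and the risen count was 3 without knockout replicate 1 and where the mean signal had to reach 5. Of 9 HSP70 co-factors tested, BAG3 and BAG1 (0.32) rose and none fell, and BAG1 was lost without knockout replicate 2 (0.0565). The HSP90 co-chaperones had 4 of 21 risen and 2 fallen. UNC45A, a myosin chaperone, was at 0.56 and AHSA1, which speeds the ATPase of HSP90, at 0.25, while FNIP2 was at -0.30 and the immunophilin FKBP5 at -0.24. Without control replicate 1 the risen count there was 8, without control replicate 2 the fallen count was 4, without knockout replicate 1 it was 1, and FKBP5 was lost without knockout replicate 1 (0.0672). With equal medians 5 HSP90 co-chaperones fell, and after quantile normalization 6 did.

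Heat shock factors and their regulators had 5 of 10 risen and none fallen, where 26.2% of all genes rose and 13.5% fell. The risen genes were EP300 (0.29), HDAC6 (0.37) and HSBP1 (0.25), and HSF1 and CREBBP, which were looked up after the count was seen. HSF1, the main activator of the inducible genes, had a signal of 31.7 and 30.04 in control, 36.5 and 36.4 in knockout, and 32.9 and 32.4 in rescue. Its log2 difference in knockout was 0.23 (limma adjusted p = 0.00884), and its call was lost without knockout replicate 1 (0.0688) or 2 (0.058). Without either of these libraries the count of risen genes in that list was 3. HSBP1, a protein that binds heat shock factors, was lost without knockout replicate 1 (0.0881). The remaining list, of genes named as small heat shock proteins, had 1 tested gene, HSPB11, which did not pass (log2 0.17). It was looked up after the count was seen.

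Chaperones of the mitochondria gave other counts than the inducible cytosolic genes. HSPD1 and HSPE1 did not pass, and of 22 other mitochondrial chaperones and proteases 7 fell in knockout and 2 rose, with a median of -0.11, where 13.5% of all genes fell and 26.2% rose. HSPA9, the mitochondrial HSP70, went from 169 ± 6.87 to 135 ± 1.02 (log2 -0.32, limma adjusted p = 0.000352), TRAP1, the mitochondrial HSP90, was at -0.32 and the exchange factor GRPEL2 at -0.36. The risen genes were DNLZ at 0.35 and GRPEL1 at 0.22, and neither passed without control replicate 2 (limma adjusted p = 0.152 and 0.140) or knockout replicate 1 (0.119 and 0.164). GRPEL1 also lost its call without a filter (limma adjusted p = 0.0535), without a variance trend (0.0607) and with only the groups compared in the fit (0.0716). It was lost too without knockout replicate 2 (log2 0.22), among other alternatives, and the risen count was higher without control replicate 1. The fallen count was 4 without knockout replicate 2, 12 after quantile normalization and 11 with equal medians. The cytosolic chaperonin and prefoldin had 3 of 15 genes risen and 3 fallen, with PFDN5 (0.35), PFDN2 (-0.32) and the chaperonin subunit CCT8 (-0.26) called in every alternative. PFDN6, PDRG1 and PFDN4, at 0.18, 0.25 and -0.25, lost their calls without knockout replicate 1 (0.267, 0.298 and 0.362), among other alternatives. The count of risen genes was 6 without control replicate 1 and 1 without knockout replicate 1 or without a variance trend, and 6 genes fell with equal medians.

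In rescue against knockout, 12 of the 22 mitochondrial genes rose and none fell, where 15.6% of all genes rose and 15.9% fell. The risen count was 7 without a variance trend, 6 and 3 without knockout replicate 1 and 2, and 3 and 7 without rescue replicate 1 and 2. Of the 19 further heat shock factor targets left without HSPA6 and RGS2, 4 fell and none rose. Over all 21 the fallen count was 6, and it ran from 3 where the mean signal had to reach 5 to 12 after quantile normalization, where 2 rose. None of the 102 genes on the lists passed between rescue and control (limma).

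**Figure D4:**
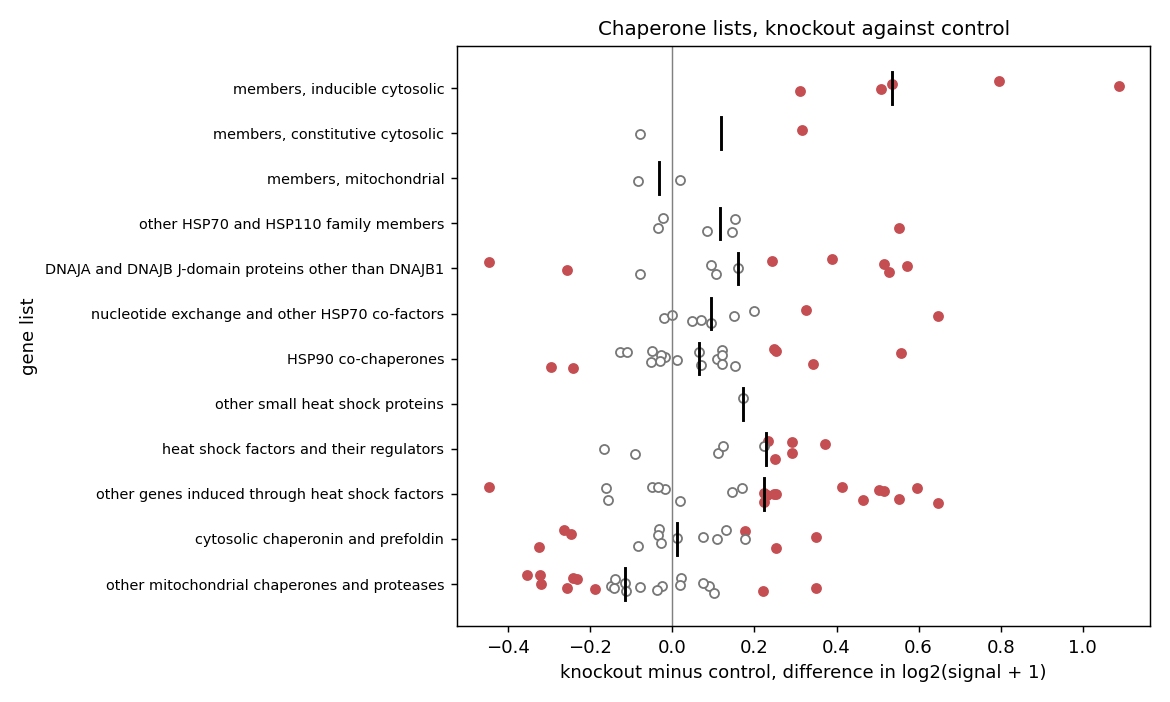
Differences between knockout and control in log2(signal + 1) for the members by class and for 9 further chaperone lists, with 1 point per tested gene, filled where the limma adjusted p is under 0.05, and a black bar at each list's median. HSPA6 and RGS2, among the filled points, reached the filter's level in knockout only. All 5 inducible members lie at 0.31 or above, while the median of the other mitochondrial chaperones and proteases is -0.11.

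The transcripts most like the inducible class were sought by Pearson's r over the 6 libraries between each gene and the mean centred profile of the 5 inducible members, among 8819 other genes with a mean signal of at least 5. ILK (r = 0.9996), CST7 (0.9995), KDM5B (0.9992), PBXIP1 (0.9992) and CD68 (0.9991) ranked highest. As 1250 of the 8819 genes had r over 0.95, this likeness describes a pattern that many transcripts share in libraries of 3 groups. CD68, a lysosomal protein of monocytes and macrophages, had a signal of 33.9 and 29.7 in control, 63.4 and 62.7 in knockout, and 35.4 and 37.5 in rescue.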

How the data were processed

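The deposited table gives 1 abundance per gene and library, treated as a signal, since the authors state no unit for it. Per the submitters' processing notes, STAR (alignment), RSEM (quantification) and the build GRCh38 were used, and their versions are not given in the sources used here. Per the labels' protocols, libraries were made with a stranded TruSeq kit from RNA depleted of ribosomal RNA and sequenced on an Illumina instrument. The table holds no value of 0 and has a minimum near 0.1 in every library, and the filter behind this is not given in the sources used here.

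A gene was tested if 2 or more libraries reached a signal of 1, which held for 12734 of 15059. limma 3.58.1 (R 4.3.3), with a variance trend, was fitted to log2(signal + 1) over all 6 libraries with group as the only term (3 residual and 11.0 prior degrees of freedom). The two-sided p-values were adjusted by Benjamini-Hochberg across the tested genes, with a threshold of 0.05. The addition of 1 understates the log2 difference of low genes. The fit was tested on simulated data. Coordinates come from GENCODE release 29 and upstream sequences from RefSeq. The rest was done with numpy 2.4.6, matplotlib 3.10.9 and pandas 2.3.3 under Python 3.11.15.

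The members and lists were chosen with earlier results of these data known. Named genes were the members, METTL16, up to 3 risen and 3 fallen genes per list with the smallest p in knockout against control, and the 5 genes most like the inducible class. One gene that this rule names is not reported here. The text says where another gene was added once its values were known. Alternatives covered the pseudocount, filter, scaling, variance trend, samples in the fit, replicate block and each library left out.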

Additional observations from a re-analysis of the deposited data

How the results depend on the processing

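The members' log2 differences were recomputed in 15 alternatives for each comparison, 405 values in all, of which 363 kept their direction and their side of the threshold, 14 passed newly, 19 no longer passed and 9 changed sign. The sign changes outside those given above were HSPH1 in rescue against control, at -0.0089 after quantile normalization, -0.011 with equal medians and -0.0073 with equal sums, and HSPD1 there at -0.019 after quantile normalization. In knockout against control HSP90AB1 was at 0.13 and in rescue against knockout at -0.057 after quantile normalization, and HSPE1 in knockout was at -0.058 with equal medians. With single libraries left out, HSPE1 in knockout ran from -0.017 to 0.053 and HSPH1 in rescue against control from -0.0046 to 0.12. The cause was not tested in any of these.

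In knockout against control the count of fallen members was 1 after quantile normalization, 2 with equal medians, 1 with equal sums and 0 to 1 with single libraries left out. Over all genes the fallen count was 3187 after quantile normalization and 3164 with equal medians, and leaving out single libraries gave 2065 to 4127 risen and 1182 to 2257 fallen. In rescue against knockout the risen members were 1 after quantile normalization, 0 without a variance trend and 0 to 3 with libraries left out. Over all genes 3946 fell with equal sums, and leaving out libraries gave 1154 to 2492 risen and 1119 to 2538 fallen.

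In rescue against control the counts over all genes, 29 risen and 7 fallen, became 17 risen without a filter, 194 and 31 where the mean signal had to reach 5, 19 and 14 after quantile normalization, 8 and 0 with equal medians, 17 and 12 with equal sums, 5 and 4 without a trend and 209 and 68 with only those groups in the fit. Leaving out single libraries gave 6 to 213 risen and 1 to 73 fallen.

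The log2 gains of the ratios in knockout were smaller after quantile normalization, at 0.63 for HSPA1A to HSPA8, 0.315 for DNAJB1 to HSPA8, 0.058 for HSPH1 to HSPA8, 0.13 for HSP90AA1 to HSP90AB1 and 0.081 for HSPE1 to HSPD1.

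The replicate block gave 299 risen and 83 fallen genes and 1 risen member in rescue against control. Replicate differences correlated at -0.011, -0.048 and 0.10 between groups, so the numbers were not taken to pair the libraries. HSPA1A and HSPA1B summed as 1 gene was planned and not run, since HSPA1B was not analysed here. No depth is stated, so how far counting error limits the lowest genes is known only from the estimate above.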

Other observations

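The symbol HSPA7, next in name to HSPA6, was added here once its values were known. HSPA7 had a signal of 20.3 and 17.8 in control, 12.9 and 12.3 in knockout, and 16.8 and 15.9 in rescue. It thus stood far above HSPA6 in every library and went the other way in knockout, with a log2 difference of -0.56 (limma adjusted p = 0.000115). In rescue against knockout it was at 0.35 (limma adjusted p = 0.00447). Whether HSPA7 encodes a protein was not examined, so its fall cannot be read as that of a second stress HSP70. How reads were divided between HSPA6 and HSPA7 was not tested.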
